A study of Mus musculus with 28 samples.

Results

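The genes described here encode proteins of the extracellular matrix, enzymes that cross-link or degrade it, and actin-binding proteins of contractile fibroblasts. They were chosen by gene symbol: 43 genes of the 24079 in the count table. Each symbol was found once, and all 43 passed the filter on low counts that left 15099 genes for testing. By role they comprise 6 fibrillar collagens, 6 other collagens, 7 glycoproteins and matricellular proteins, 5 genes of the elastic fibre and of cross-linking, 3 small leucine-rich proteoglycans, 7 proteases, inhibitors and a hyaluronan synthase, 2 CCN proteins and 7 contractile and cytoskeletal genes.

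Fibroblasts lay down the matrix of connective tissue. They secrete procollagens that are trimmed, assembled into fibrils and cross-linked by lysyl oxidases, and glycoproteins such as fibronectin that cells grip through integrins. When fibroblasts become contractile they add smooth muscle actin, transgelin and calponin. Genes of this kind are known targets of TGF-beta signalling through SMAD proteins, of the serum response factor SRF with its MRTF cofactors, and of YAP with TEAD factors.

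The cells were mouse embryonic fibroblasts of a mixed C57BL/6x129Sv strain, all transformed with RAS and with DNP53. Clones 12 and 14 held a tagged cyclin D1 and clones 25 and 18 an untagged one, each clone being 1 cell line. The 2 tagged clones each gave 1 library after overnight transfection with each of 6 siRNAs: against the FLAG tag, against the HA tag, 3 against cyclin D1 that are labelled Qiagen, Nature and Life, and the control labelled SCR. The same clones each gave 1 library after overnight leptomycin B at 20 ng/mL, an inhibitor of the nuclear export receptor XPO1, and 1 without treatment. Clones 25 and 18 each gave 1 library with FLAG, HA and SCR siRNA. Derivatives of clone 18 carrying FLAG-mCherry-HA/PURO or mCherry/PURO were sequenced in 3 libraries a construct, where HA siRNA was used in 2 and FLAG siRNA in 1. By its title, the study asks how cyclin D1 and procaspase-3 act together in cancer cells.

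Ccnd1, the gene of cyclin D1, had 50.12 to 328.9 CPM (counts scaled to library size) in the 10 tagged-clone libraries with a targeting siRNA and 760.2 to 1469 CPM in the other 18 libraries. The libraries held 26558256 to 81512769 counts, and 4 libraries held over 2% of their counts in Rn45s, a ribosomal RNA precursor. The labelled cell type was checked against 12 fibroblast markers. The median over libraries was at least 1 CPM for all 12 in clones 12, 25 and 18 and in the lines of clone 18, and for 9 of 12 in clone 14. Clone 14 kept vimentin, Ddr2, Prrx1, S100a4 and Twist1 but had a median of 0 CPM for Thy1 and Fap and of 0.471 CPM for Col1a1. Pdgfra had medians of 131, 4.54, 68.8 and 97.7 CPM and Pdgfrb of 45.9, 2.44, 13 and 6.64 CPM in clones 12, 14, 25 and 18. The markers Col1a1, Col1a2, Col3a1 and vimentin are themselves among the 43 genes, so this check is not independent of them. The summed level of 7 epithelial markers was 87.4 to 229 CPM over the libraries of clone 12, 970.1 to 1958 CPM in clone 14, 371 to 615 CPM in clone 25 and 608 to 1135 CPM in clone 18. The keratin gene Krt18 had a median of 145 CPM in clone 12, 1157 CPM in clone 14, 435 CPM in clone 25 and 963 CPM in clone 18. The adhesion gene Cdh1 had a median of 0.764 CPM in clone 12, 30.9 CPM in clone 14, 1.73 CPM in clone 25 and 3.67 CPM in clone 18, whereas Krt5 and Cldn4 had a median of 0 CPM in every line. The summed level of 7 cartilage and bone markers overlapped between clones, at 144 to 276 CPM in clone 12, 136 to 233 CPM in clone 14, 166 to 171 CPM in clone 25 and 176 to 214 CPM in clone 18. Among them Acan had medians of 0.761, 54.2, 0.21 and 0.622 CPM and Col2a1 of 74, 0.0842, 0.447 and 2.29 CPM in clones 12, 14, 25 and 18. The summed level of 6 smooth muscle markers was 57.9 to 79.5 CPM in clone 12, 22.7 to 37.1 CPM in clone 14, 61.4 to 68.8 CPM in clone 25 and 47.7 to 57.8 CPM in clone 18. Of the 6, Actg2 had medians of 26.5, 0.125, 4.94 and 0.281 CPM and Lmod1 of 1.96, 0, 5.78 and 0.0234 CPM in the same order. Des had 0, 0, 0.674 and 9.5 CPM and Synpo2 0.917, 0.038, 0.894 and 3.06 CPM, both highest in clone 18. Smtn had 37.2, 25.5, 49.7 and 35.9 CPM and Myh11 0.158, 0.0275, 1.26 and 0.0526 CPM. The part of these markers in the clone differences below was not tested.

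As a set, these genes differed more between the 4 clones than with the treatments, and clone 14 stood apart. The median size of the log2 fold change was 1.03 to 4.97 between pairs of clones and at most 0.54 in the treatment comparisons. Single genes could come close. Col3a1 had a clone range of 1.13 on the log2 scale and changed by 1.04 with leptomycin B. All 43 genes differed among the clones in edgeR's quasi-likelihood test at a Benjamini-Hochberg adjusted p under 0.05, where 82% of all genes tested did. The distance between the highest and the lowest clone had a median of 4.89 on the log2 scale over the 43 genes, against 0.9 over all genes. Differences between clones held a median of 98.6% of the variance of these genes, against 76.3% for all genes. These distances and variance shares, and the clone means that follow, use only the FLAG, HA and SCR siRNA libraries of the 4 clones. Variance from the other treatments is not in them. Clone 14 had the lowest clone mean for 34 of the 43 genes (79.1%), and for 29.6% of all genes. For 28 genes (65.1%) each of its 8 libraries lay below each of the other 20 libraries, as did 4.94% of all genes, and for 0 of the 43 did each lie above. The summed level of the 43 genes was 15060 to 20480 CPM in clone 12, 7630 to 12160 CPM in clone 14, 17660 to 20360 CPM in clone 25 and 19030 to 19690 CPM in clone 18. In bulk RNA, fewer cells that make a transcript and less transcript per cell cannot be told apart.

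**Figure D1:**
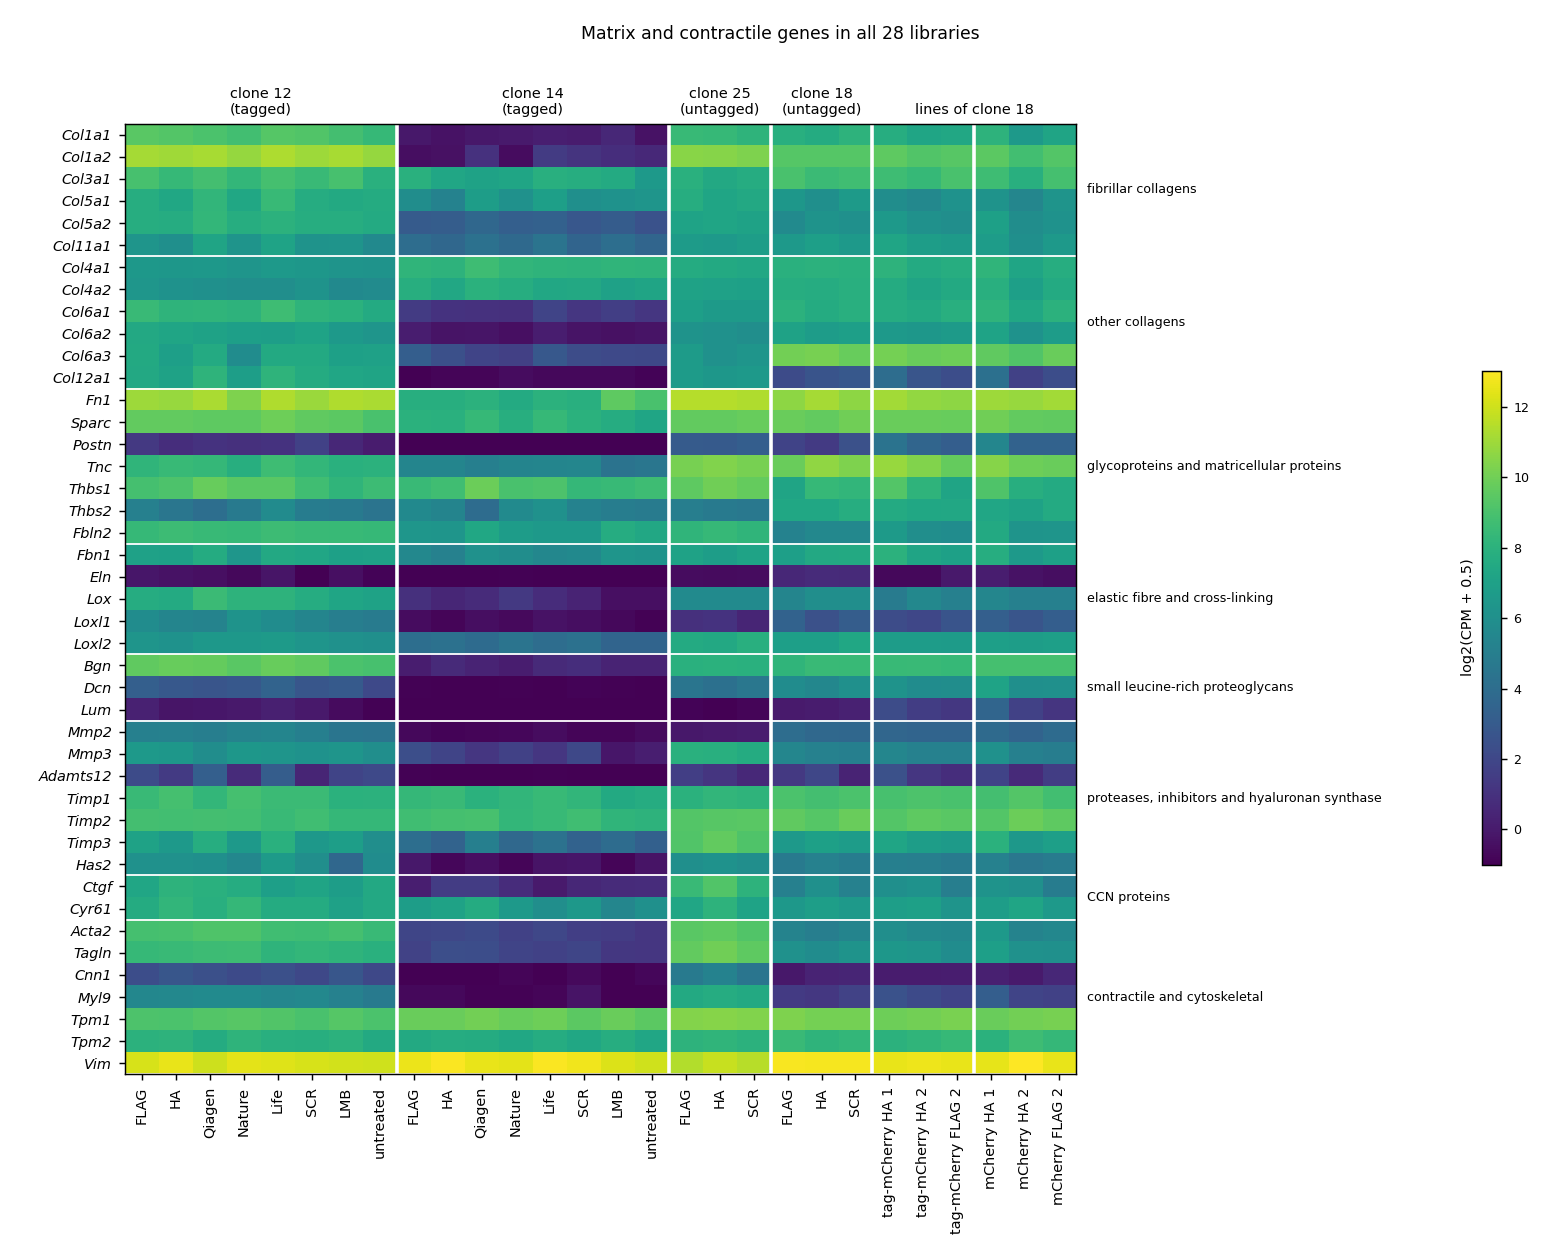
Level of each of the 43 genes (vertical axis, grouped by role) in each of the 28 libraries (horizontal axis, grouped by clone) as log2(CPM + 0.5) in colour. The 8 libraries of clone 14 form a dark block for most genes, while Col3a1, the Col4 genes, the thrombospondins, Timp1, Timp2, tropomyosins and vimentin stay bright.

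Pair by pair, 41 of the 43 genes differed between clone 12 and clone 14, 36 higher and 5 lower in clone 12, where 62.6% of all genes differed, 33.4% higher and 29.2% lower. The median log2 fold change over the 43 was 4.97, against 0.05 over all genes, and 4.54 with the 3 genes that had 0 counts in the FLAG, HA and SCR siRNA libraries of clone 14 set to their lower bounds. Clone 14 against clone 18 gave 39 genes, 2 higher and 37 lower in clone 14 (43.3% of all genes, 18.1% higher and 25.2% lower), with a median of -3.68. Clone 14 against clone 25 gave 41 genes, 4 higher and 37 lower in clone 14 (57.3% of all genes, 27.3% higher and 30% lower), with a median of -3.94, or -3.60 with the bounds. These comparisons share the clone 14 libraries. Clone 12 against clone 14 is the fitted clone term over all treatments that these clones share. Clones 12 and 14 against clones 25 and 18 use fitted levels with FLAG, HA and SCR siRNA. In these the clone term of the tagged pair again comes from all its treatments. The fold changes can therefore differ from ratios of the FLAG, HA and SCR means. In these fitted comparisons, which include the FLAG and HA siRNA libraries, Ccnd1 was lower in both tagged clones than in clones 18 and 25. Its log2 fold changes were -1.79 and -1.86 for clone 14 and -1.81 and -1.88 for clone 12. With SCR siRNA it had 1128, 1287, 1313 and 1329 CPM in clones 12, 14, 25 and 18. The part of Ccnd1 in the differences was not tested. The untagged clones also differed from each other. Clone 25 against clone 18 gave 34 genes, 19 higher and 15 lower in clone 25, where 47.6% of all genes differed, 22.9% higher and 24.6% lower, but the median was -0.04 and the median size 1.12. Clone 12 against clone 18 gave 34 genes (48.4% of all genes) and clone 12 against clone 25 gave 32 (48.8%), also split in direction. Each clone is 1 line, so the p-values measure the spread between libraries of that line and not between independent lines of its kind.

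Among fibrillar collagens, the type I chains all but vanished from clone 14 while the type III chain differed less. Col1a2, which encodes the alpha 2 chain of type I collagen, had the widest range of all 43 genes. Values are given as the lowest, median and highest of the 8 libraries of a tagged clone, and for FLAG, HA and SCR siRNA in that order in an untagged clone. They were 1771, 2199 and 2505 CPM in clone 12 and 0.201, 1.16 and 2.24 CPM in clone 14, and it had 1478, 1439 and 1276 CPM in clone 25 and 636, 636 and 651 CPM in clone 18. Clone 14 lay far below every library of the other clones (log2 fold change of clone 14 over clone 18 -9.47 ± 0.34, SE, edgeR adjusted p = 1.16e-13). Col1a1, its partner chain, ran from 343 through a median of 570.4 to 709.6 CPM in clone 12 and from 0.292 through 0.471 to 0.967 CPM in clone 14, and had 348, 336 and 282 CPM in clone 25 and 231, 195 and 271 CPM in clone 18. Clone 14 did not overlap any other clone (clone 14 over clone 18 -8.62 ± 0.25, adjusted p = 3.94e-15).

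Col3a1, the type III chain that forms fibrils with type I, behaved otherwise. It ran from 238 through a median of 411 to 496 CPM in clone 12 and from 93.1 through 173 to 241 CPM in clone 14, and had 240.3, 176 and 205 CPM in clone 25 and 513, 381 and 431 CPM in clone 18. Clone 14 overlapped clone 25 (log2 difference -0.14 ± 0.13, edgeR adjusted p = 0.358) and lay below clone 18 (-1.23 ± 0.12, adjusted p = 1.88e-07). Col5a2 lies on chromosome 1 with a gap of 24.6 kb to the end of Col3a1, on the opposite strand, in GRCm38. This chain of type V collagen, which sets fibril diameter, was lower in clone 14 than in clone 18 (-3.06 ± 0.12 on the log2 scale, adjusted p = 1.92e-13), with means of 7.51 ± 0.827 CPM in clone 14 and 63.8 ± 10.4 CPM in clone 18 (SD, n = 3 siRNA libraries each). Its partner Col5a1 was less reduced (-0.49 ± 0.13, adjusted p = 0.00659), and the minor fibril collagen Col11a1 fell by 3.01 against clone 18 (SE 0.15, adjusted p = 9.28e-12).

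The bases upstream of Col3a1 and Col1a2 are shown because the 2 genes, whose products share fibrils, parted in clone 14. They are from RefSeq, build GRCm38.p6, 250 bases that end before the annotated start, 5′ to 3′ on the gene's strand. Col3a1 is at chr1:45311288-45311537 (+ strand) and Col1a2 at chr6:4505368-4505617 (+ strand). Capitals mark every match, on either strand, of the 4 motifs searched: the TEAD motif GGAATG, the SMAD motif CAGAC, the AP-1 motif TGANTCA and the CArG box of SRF, spelled CC, then 6 letters that are A or T, then GG. Col3a1 holds a TEAD motif, on the reverse strand, and CAGAC on both strands, and Col1a2 holds CAGAC.
Col3a1: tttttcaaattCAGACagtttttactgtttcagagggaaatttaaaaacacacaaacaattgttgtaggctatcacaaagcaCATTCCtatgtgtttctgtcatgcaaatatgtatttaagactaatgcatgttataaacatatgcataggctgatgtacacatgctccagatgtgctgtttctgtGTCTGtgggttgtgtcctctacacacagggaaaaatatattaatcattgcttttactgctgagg
Col1a2: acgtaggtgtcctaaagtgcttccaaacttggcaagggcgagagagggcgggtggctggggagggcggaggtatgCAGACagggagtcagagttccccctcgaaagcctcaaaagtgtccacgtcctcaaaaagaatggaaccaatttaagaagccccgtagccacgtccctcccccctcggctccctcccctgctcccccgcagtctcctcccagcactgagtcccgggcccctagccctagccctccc
Windows of 300 bases, 250 before and 50 after the start, were in the RefSeq table for 28 of the 43 genes. GGAATG on either strand was in 6 of these 28 genes (21.4%), Acta2, Col3a1, Col6a2, Cyr61, Timp1 and Tpm1, and in 14.7% of all 32851 windows. CAGAC was in 14 of 28 (50%) and in 49.6% of all windows. The AP-1 motif TGANTCA was in 2 of 28, Col6a1 and Mmp3 (7.14%), and in 7.81% of all windows.

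Type VI and XII collagens were low in clone 14, and the basement membrane collagens were not. Type VI forms beaded filaments around cells. Col6a1 averaged 306 ± 46.1 CPM in clone 12, 1.9 ± 0.325 CPM in clone 14, 106 ± 10.9 CPM in clone 25 and 228 ± 30.7 CPM in clone 18 (SD over the FLAG, HA and SCR siRNA libraries, n = 3 each). Col6a2, on the same strand of chromosome 10 with a gap of 85.2 kb, ran from 80.7 through 128 to 177 CPM in clone 12 and from 0.234 through 0.345 to 0.61 CPM in clone 14, and had 74.2, 68.2 and 61.9 CPM in clone 25 and 137, 106 and 119.9 CPM in clone 18. Both genes were lower in every clone 14 library than in any other library (clone 14 over clone 18 -6.79 ± 0.15 and -8.01 ± 0.18 on the log2 scale, adjusted p = 2.18e-16 and 1.87e-16). The third chain, Col6a3, was spread over all clones, with means of 163 ± 34.8 CPM in clone 12, 5.88 ± 2.32 CPM in clone 14, 83.3 ± 16.8 CPM in clone 25 and 1030 ± 143 CPM in clone 18 (SD, n = 3). Clone 25 was below clone 18 in Col6a3 (log2 fold change -3.64 ± 0.23, adjusted p = 4.38e-10).

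Col12a1, a collagen that sits on fibril surfaces, gave 2 high and 2 low clones. It ran from 117 through 167 to 282 CPM in clone 12 and from 0 through 0.0895 to 0.201 CPM in clone 14, and had 104, 84.4 and 96 CPM in clone 25 and 4.16, 5.85 and 6.75 CPM in clone 18. Clone 25 exceeded clone 18 by 4.10 ± 0.24 on the log2 scale (adjusted p = 1.58e-10). Col4a1 and Col4a2, the main chains of basement membrane collagen, start on opposite strands of chromosome 8 and share 22 bases between their RefSeq starts. They moved as a pair and were lowest in clone 12. Col4a1 averaged 87.7 ± 1.08 CPM in clone 12, 275 ± 17.8 CPM in clone 14, 186 ± 13.1 CPM in clone 25 and 248 ± 14.4 CPM in clone 18, and Col4a2 75.3 ± 5.87, 190.2 ± 26.4, 130.3 ± 6.25 and 219 ± 13.9 CPM in the same clones (SD, n = 3). Clone 14 was above clone 25 in both (0.65 ± 0.11 and 0.63 ± 0.12, adjusted p = 5.6e-05 and 0.000188) and did not pass the test against clone 18 (0.23 ± 0.11 and -0.12 ± 0.11, adjusted p = 0.0858 and 0.437).

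Fibronectin, Sparc and tenascin C were lower in clone 14 but still measured, and periostin was at 0. Fibronectin, Fn1, ran from 1305 through 2244 to 2652 CPM in clone 12 and from 191 through 247 to 757 CPM in clone 14, and had 2875, 2813 and 2678 CPM in clone 25 and 1629, 2250 and 1624 CPM in clone 18. Sparc, a collagen-binding protein, averaged 806 ± 18.9, 246 ± 6.45, 832 ± 28.2 and 921 ± 109 CPM in clones 12, 14, 25 and 18 (SD, n = 3). Tenascin C, Tnc, was high in both untagged clones, with 317 ± 35.6 CPM in clone 12, 41.9 ± 0.61 CPM in clone 14, 1204 ± 100.2 CPM in clone 25 and 1284 ± 376 CPM in clone 18. Periostin, Postn, had 0 counts in all 8 libraries of clone 14. Over the 3 siRNA libraries it was at least 100.3-fold higher in clone 12, at least 343-fold higher in clone 25 and at least 143-fold higher in clone 18 than in clone 14, with a floor of 3 counts over the clone 14 group. The thrombospondins, which regulate adhesion and latent TGF-beta, did not share this pattern. Thbs1 was higher in clone 14 than in clone 18 (0.66 ± 0.16, adjusted p = 0.00296) and lower than in clone 25 (-1.15 ± 0.16, adjusted p = 5.77e-06), and Thbs2 was lower than in clone 18 (log2 -2.15 ± 0.15, adjusted p = 1.62e-09) and higher than in clone 25 (0.54 ± 0.16, adjusted p = 0.00871). Fibulin 2, Fbln2, was higher in clone 14 than in clone 18 as well (1.26 ± 0.23, adjusted p = 0.000185).

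The lysyl oxidases and proteoglycans were lowest in clone 14, and their order over the other clones differed from gene to gene. Lysyl oxidase, Lox, averaged 202 ± 9.17 CPM in clone 12, 1.06 ± 0.307 CPM in clone 14, 52.1 ± 0.5 CPM in clone 25 (SD, n = 3 each), and had 41.1, 61.1 and 61.1 CPM in clone 18. Loxl1, which cross-links elastin, ran from 28.5 through 40.8 to 74.4 CPM in clone 12 and from 0.0344 through 0.162 to 0.303 CPM in clone 14, and had 1.45, 1.59 and 0.885 CPM in clone 25 and 10.2, 5.01 and 8.15 CPM in clone 18. No library of a clone overlapped another clone in Loxl1. Loxl2, which acts on basement membrane collagen, was highest in clone 25, with 76 ± 4.87 CPM in clone 12, 17.7 ± 1.29 CPM in clone 14, 199 ± 28.2 CPM in clone 25 and 135 ± 23.7 CPM in clone 18 (SD, n = 3). Fibrillin 1, Fbn1, the scaffold of elastic fibres, was 43.8 ± 7.62 CPM in clone 14 and 161 ± 33.9 CPM in clone 18 (-1.69 ± 0.21, adjusted p = 4.07e-06). Elastin itself, Eln, was near the floor everywhere, at most 1.17 CPM in the 4 clones, and its total over the 8 libraries of clone 14 was 1 count.

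Biglycan, Bgn, a proteoglycan that binds collagen and TGF-beta, ran from 487 through 771 to 874 CPM in clone 12 and from 0.572 through 0.837 to 1.31 CPM in clone 14, and had 239, 251 and 243 CPM in clone 25 and 294, 366 and 356 CPM in clone 18. Its difference between clone 14 and clone 18 was -8.36 ± 0.14 on the log2 scale (adjusted p = 1.04e-17). Decorin, Dcn, which limits fibril thickness, ran from 3.84 through 6.76 to 10.4 CPM in clone 12 and from 0 through 0.023 to 0.0494 CPM in clone 14, and had 21.3, 17.8 and 23.4 CPM in clone 25 and 56.7, 45.1 and 66.2 CPM in clone 18. Biglycan was highest in clone 12 and decorin in clone 18, with clone 14 lowest in both. Lumican, Lum, which lies on the same strand of chromosome 10 with a gap of 47.3 kb to decorin, had 0 counts in every clone 14 library and at most 0.73 CPM in the other clones.

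The matrix-degrading enzymes Mmp2 and Mmp3 were low in clone 14, and their inhibitors Timp1 and Timp2 differed less between clones. The gelatinase Mmp2 ran from 20.7 through 33.3 to 41.8 CPM in clone 12 and from 0.0471 through 0.088 to 0.19 CPM in clone 14, and had 0.421, 0.5 and 0.531 CPM in clone 25 and 15.7, 12.8 and 12.3 CPM in clone 18. Here clone 25 was low too (clone 25 over clone 18 -4.78 ± 0.23, adjusted p = 1.24e-11). The stromelysin Mmp3 was highest in clone 25, with 82.2 ± 10.1 CPM in clone 12, 3.86 ± 0.722 CPM in clone 14, 225 ± 22.7 CPM in clone 25 and 36.7 ± 5.22 CPM in clone 18 (SD, n = 3). Timp1 averaged 406 ± 58.6 CPM in clone 12, 328 ± 31.3 CPM in clone 14, 278 ± 24.7 CPM in clone 25 and 507 ± 46.9 CPM in clone 18. It was lower in clone 14 than in clone 18 (-0.66 ± 0.1, adjusted p = 2.73e-05) and did not pass the test against clone 25 (0.21 ± 0.1, adjusted p = 0.0923). Timp2 averaged 441 ± 11.6, 439 ± 29.7, 654 ± 38.6 and 778 ± 141 CPM in the same order of clones, lower in clone 14 than in clone 18 and in clone 25 (-0.87 ± 0.1 and -0.63 ± 0.1, adjusted p = 1.84e-06 and 5.26e-05), and Timp3 106 ± 25.2, 12.2 ± 3.4, 658 ± 123 and 108 ± 16.4 CPM. The protease Adamts12 had 1 count over the 3 siRNA libraries of clone 14 and 252 over those of clone 18, a ratio of 287 in favour of clone 18 with an exact 95% counting interval of 51 to 11377. Has2, which makes hyaluronan, was 0.303 ± 0.181 CPM in clone 14 and 30.2 ± 5.05 CPM in clone 18 (-6.79 ± 0.22, adjusted p = 1.93e-14).

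The CCN proteins, targets of YAP with TEAD and of TGF-beta, parted from each other. Ctgf ran from 113 through 166 to 274 CPM in clone 12 and from 0.493 through 1.2 to 2.34 CPM in clone 14, and had 370.3, 607 and 269 CPM in clone 25 and 33.9, 65.8 and 36.1 CPM in clone 18. Cyr61 averaged 236 ± 60.6, 112 ± 23.6, 189 ± 66.9 and 98.6 ± 14 CPM in clones 12, 14, 25 and 18 (SD, n = 3). Clone 14 was below clone 18 in Ctgf (-5.04 ± 0.16 on the log2 scale, adjusted p = 2.03e-14), and did not pass the test in Cyr61 (0.08 ± 0.19, adjusted p = 0.76).

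Acta2, Tagln, Cnn1 and Myl9 ordered the clones as 25, 12, 18 and 14 from high to low. Smooth muscle actin, Acta2, averaged 458 ± 44.7 CPM in clone 12, 3.14 ± 0.487 CPM in clone 14, 685 ± 74.6 CPM in clone 25 and 36.4 ± 4.51 CPM in clone 18 (SD, n = 3). Transgelin, Tagln, which bundles actin, ran from 238 through 328 to 405 CPM in clone 12 and from 1.79 through 3 to 4.73 CPM in clone 14, and had 798, 1001 and 746 CPM in clone 25 and 67.5, 55.4 and 73 CPM in clone 18. The myosin light chain gene Myl9 ran from 25.9 through 45.5 to 52.6 CPM in clone 12 and from 0 through 0.0562 to 0.346 CPM in clone 14, and had 184, 206 and 183 CPM in clone 25 and 2.11, 1.92 and 2.9 CPM in clone 18. In all these genes the libraries of the 4 clones did not overlap. Calponin, Cnn1, kept the order at lower levels, with 3.62 to 6.37 CPM in clone 12, 0 to 0.148 CPM in clone 14, 26.6, 36.2 and 21.7 CPM in clone 25 and 0.447, 0.842 and 0.889 CPM in clone 18. Clone 25 exceeded clone 18 by 4.24 ± 0.19 in Acta2, 3.70 ± 0.18 in Tagln, 5.28 ± 0.43 in Cnn1 and 6.38 ± 0.31 in Myl9 on the log2 scale (edgeR adjusted p = 6.22e-12, 2.4e-11, 1.41e-08 and 2.19e-11). Tpm1 and Tpm2, which encode tropomyosins that bind actin filaments, and the intermediate filament gene vimentin differed less between clones. Tpm1 averaged 538 ± 20.6, 849.5 ± 109, 1387 ± 37.3 and 1161 ± 89.5 CPM in clones 12, 14, 25 and 18, and vimentin 5145 ± 862, 7016 ± 839, 3150 ± 546 and 7472 ± 221 CPM (SD, n = 3). Tpm2 averaged 247 ± 25.4, 185 ± 19.3, 275 ± 16.3 and 318 ± 41.1 CPM in the same order, lowest in clone 14. Against clone 25, clone 14 was lower in Tpm1 and Tpm2 (-0.75 ± 0.09 and -0.54 ± 0.12, adjusted p = 6.73e-07 and 0.000862) and higher in vimentin (1.11 ± 0.13, adjusted p = 1.11e-06). Per kilobase of exon, vimentin was the highest of the 43 genes in every clone, at 1085, 1479, 664 and 1575 CPM per kb in the same order.

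The bases before a RefSeq start of Acta2 and Myl9 are shown because these 2 contractile genes had the same order over the clones. They are 250 bases that end before that start in GRCm38.p6, 5′ to 3′ on the gene's strand, Myl9 at chr2:156775214-156775463 (+ strand) and Acta2 at chr19:34255374-34255623 (- strand). The annotated genes begin further upstream, at 156775408 for Myl9 and 34255585 for Acta2, so part of each stretch lies inside its gene. Where a gene had several windows, one with a motif was preferred. Capitals mark every match of the same 4 motifs: a CArG box in Myl9, and the SMAD motif, on the reverse strand, and the TEAD motif in Acta2.
Myl9: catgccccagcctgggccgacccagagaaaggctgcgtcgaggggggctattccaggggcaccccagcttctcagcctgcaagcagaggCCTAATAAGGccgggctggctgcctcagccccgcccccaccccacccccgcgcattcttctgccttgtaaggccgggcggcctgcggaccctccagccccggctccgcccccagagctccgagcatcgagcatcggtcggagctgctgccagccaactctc
Acta2: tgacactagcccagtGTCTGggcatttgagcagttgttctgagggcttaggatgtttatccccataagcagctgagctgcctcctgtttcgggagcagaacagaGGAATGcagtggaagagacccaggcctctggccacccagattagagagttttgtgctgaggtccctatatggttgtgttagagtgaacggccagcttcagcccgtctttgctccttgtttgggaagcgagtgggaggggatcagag
The CArG box in its exact spelling, on either strand, was found in 1 of the 28 genes with a window, Myl9 (3.57%), and in 1.63% of all windows. Near matches with a letter outside that spelling were neither marked nor counted, in Acta2 or any other gene. The matches describe the letters of these windows only.

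**Figure D2:**
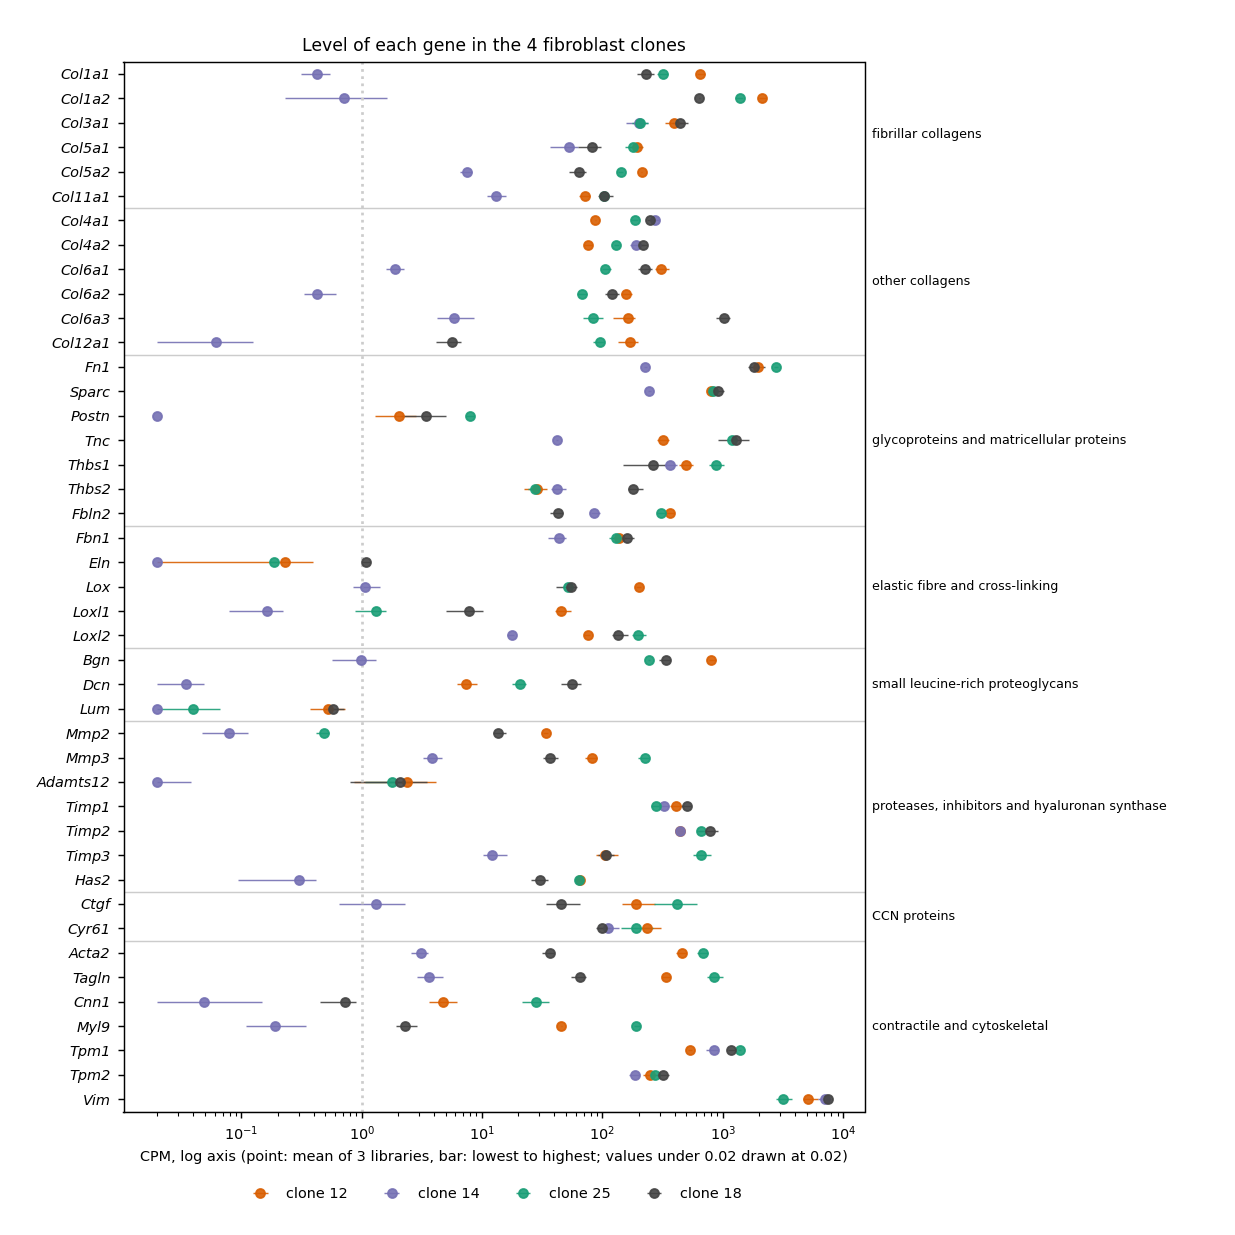
CPM on a log axis (horizontal) of each gene (vertical, grouped by role) in the 4 clones, as the mean of the FLAG, HA and SCR siRNA libraries with a bar from the lowest to the highest of the 3. Clone 14 lies at the far left for type I, VI and XII collagens, Lox, Loxl1, the proteoglycans, Mmp2, Has2, Ctgf, Acta2, Tagln, Cnn1 and Myl9, close to clone 25 for Col3a1, to clone 12 for Timp2, and at the far right for Col4a1.

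Lists of genes that act with the 43 had smaller median differences between clones 14 and 18 than the 43 genes. Of 16 genes for collagen processing, 12 differed between clone 14 and clone 18, 2 higher and 10 lower in clone 14 (median log2 fold change -0.71). Over all genes 43.3% differed between these clones, 18.1% higher and 25.2% lower. The collagen chaperone Serpinh1 was 158 CPM in clone 14 and 691 CPM in clone 18 (-2.05 ± 0.1, edgeR adjusted p = 6.95e-12). Of 19 integrins and other matrix receptors, 3 were higher and 11 lower (median -0.63; 43.3% of all genes differed), among them the fibronectin receptor subunit Itga5 (-1.58 ± 0.09, adjusted p = 5.72e-11), while syndecan 1, Sdc1, was higher (1.10 ± 0.11, adjusted p = 2.84e-07). Of 20 TGF-beta pathway genes, 0 were higher and 10 lower, near the 43.3% of all genes that differed (median -0.27), among them the latency protein Ltbp1 (-1.08 ± 0.1, adjusted p = 6.87e-08). Of 26 regulators and targets of SRF, MRTF, YAP and TEAD, 1 was higher and 7 lower, a smaller share than the 43.3% of all genes (median -0.12), among them Tead3 (-1.14 ± 0.19, adjusted p = 8.76e-05). Between clones 25 and 18, 13 of these 26 were higher and 3 lower in clone 25 (median 0.45), where 47.6% of all genes differed, 22.9% higher and 24.6% lower.

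Most matrix genes that changed with the pooled siRNAs were higher in transfected than in untreated cells. With the 6 siRNAs pooled against untreated cells, 26 of the 43 genes changed, 25 higher and 1 lower, where 28.6% of all genes changed, 11.6% higher and 17% lower. The median log2 fold change was 0.53 over the 43 genes and 0 over all genes. Of the 6 siRNAs, 5 target cyclin D1 or its tags. Ccnd1 changed by -2.69 on the log2 scale with the 6 pooled (edgeR adjusted p = 7.6e-09) and by -0.03 with SCR alone (adjusted p = 0.959). Transfection and the loss of cyclin D1 RNA therefore cannot be told apart in the pooled comparison. All 6 siRNA libraries lay above the untreated library for 26 of the 43 in clone 12 (14.2% of all genes) and for 19 in clone 14 (21.3%), and in both clones for 15 (7.72%). Some of the 15 rest on few counts in clone 14. Untreated clone 14 had 1 count of Myl9 and 2 of Loxl1. The ratio of Myl9 there was 7.62 with an exact 95% counting interval of 1.26 to 312. The number of calls depends on 2 libraries: it was 11 without the untreated library of clone 12 and 4 without that of clone 14, and 0 where the clone was left out of the model. The labels of the untreated and leptomycin B libraries of clone 12 carry a date that the siRNA libraries do not, so transfection and the day of the experiment cannot be told apart there.

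Col3a1 ran from 316 through a median of 411 to 489.7 CPM in transfected clone 12, against 238 CPM untreated, and from 138 through 184 to 241 CPM in transfected clone 14, against 93.1 CPM untreated. Every transfected library exceeded its clone's untreated one (log2 fold change 0.87 ± 0.14, SE, edgeR adjusted p = 0.00068). Sparc ran from 744 through a median of 796 to 979 CPM in transfected clone 12, against 507 CPM untreated, and from 219.9 to 344 CPM in transfected clone 14, against 153 CPM untreated (0.75 ± 0.11, adjusted p = 0.000389), and this call held whichever library was left out. Lox ran from 191 through a median of 238 to 382 CPM in transfected clone 12, against 134 CPM untreated, and from 0.84 through a median of 1.17 to 1.97 CPM in transfected clone 14, against 0.258 CPM untreated (1.15 ± 0.28, adjusted p = 0.00673). Without the untreated library of clone 14, the calls of Col3a1, Lox, Timp1, Timp2, Tagln, Acta2, Loxl1 and Myl9 were lost (log2 fold changes 0.77, 0.93, 0.60, 0.44, 0.58, 0.44, 0.80 and 0.89, adjusted p = 0.0518, 0.115, 0.0581, 0.138, 0.164, 0.268, 0.13 and 0.155). Without that of clone 12, the call of Timp3 was lost (0.74, adjusted p = 0.0537). So were those of Acta2, Loxl1, Myl9 and Dcn, at larger log2 fold changes of 0.81, 2.27, 2.45 and 3.25 (adjusted p = 0.0618, 0.108, 0.306 and 0.248). Loxl1 rose likewise (0.90 ± 0.27, adjusted p = 0.0205), and so did Timp1, Timp2 and Timp3 (0.61 ± 0.11, 0.50 ± 0.11 and 0.92 ± 0.18, adjusted p = 0.00122, 0.00404 and 0.00177). Of the contractile genes, Acta2, Tagln and Myl9 rose (0.58 ± 0.17, 0.70 ± 0.18 and 0.95 ± 0.33, adjusted p = 0.0205, 0.00796 and 0.0383), and Myl9 did not pass with DESeq2 (adjusted p = 0.13). Decorin (0.97 ± 0.23, adjusted p = 0.00587), periostin (1.67 ± 0.46, adjusted p = 0.0205) and lumican (adjusted p = 0.0145) rose too, on the libraries of clone 12, since clone 14 held at most 0.0494 CPM of decorin and 0 counts of the others. Leaving out a siRNA or untreated library of clone 12 cannot test periostin or lumican. That treatment then rests on a clone 14 library with 0 counts. Their calls were lost without any single siRNA library, and their log2 fold changes were 0.13 and 0.29 without the untreated library. The same limit holds for decorin without the Life, Qiagen or untreated library of clone 12, where clone 14 also had 0 counts. Decorin was at 0.33 without Life and 0.47 without Qiagen. Lumican had 151 counts over the 6 transfected libraries of clone 12 and 2 in the untreated one, a ratio of 16 after scaling for library size with an exact 95% counting interval of 4.36 to 133.

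Fibronectin was the gene that fell (-0.75 ± 0.19, adjusted p = 0.00943). In clone 14 it had 191 to 261 CPM after transfection, against 508 CPM untreated, and in clone 12 1305 to 2593 CPM after transfection, against 2486 CPM untreated. All 6 transfected libraries were below the untreated one in clone 14, and in clone 12 the untreated value lay inside their range. Without the untreated library of clone 14 the log2 fold change was -0.41 (adjusted p = 0.387). Fbln2 and Fbn1 lay below the untreated value in all 6 libraries of clone 14 as well, without passing the test (-0.34 ± 0.21 and -0.23 ± 0.22, adjusted p = 0.243 and 0.447). With SCR alone against untreated cells, 6 of the 43 genes changed, where 5.29% of all genes did, 1.68% higher and 3.61% lower: Col3a1, Sparc, Postn, Timp1 and Timp2 were higher and Adamts12 was lower. Leaving out 1 of the 4 libraries compared left 0 to 3 genes called.

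**Figure D3:**
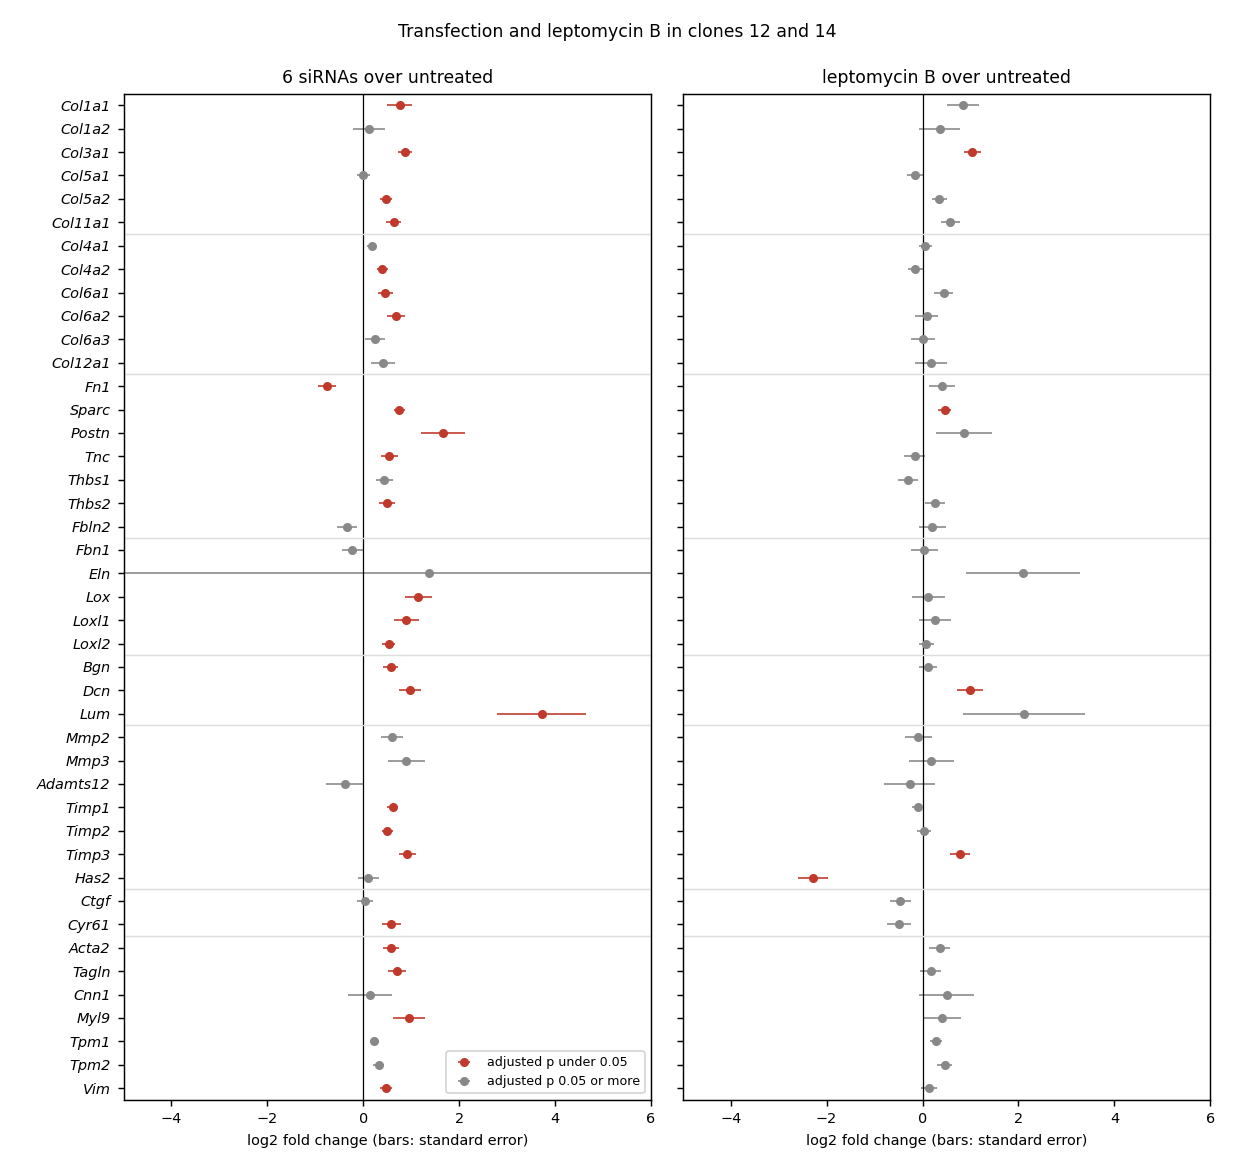
Log2 fold change of each gene with its standard error, for the 6 siRNAs over untreated cells (left) and leptomycin B over untreated cells (right), in clones 12 and 14 with the clone as a block. Red points passed an adjusted p under 0.05: 26 genes on the left, all but Fn1 to the right of 0, and 5 on the right, with Has2 far to the left of 0; the bar of Eln on the left runs beyond the axis.

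Against the control siRNA SCR in the tagged clones, the tag siRNAs changed few of the 43 genes, and 2 of the 3 cyclin D1 siRNAs changed several. The FLAG siRNA gave 2 genes (2.17% of all genes changed), Eln and Adamts12, and the HA siRNA 1, Ctgf (4.11% of all genes). Both tag siRNAs pooled gave 1, Eln (3.86%). In the untagged clones, where these siRNAs have no tag to act on, the pooled tag siRNAs gave 0 (2.68% of all genes), with 3 genes at an unadjusted p under 0.05 in edgeR and 0 by DESeq2. HA siRNA alone was not tested there. Ctgf with HA was above SCR siRNA in the untagged clones too, at 607 against 269 CPM in clone 25 and 65.8 against 36.1 CPM in clone 18. In the tagged clones it had 274 against 147 CPM in clone 12 and 2.31 against 0.988 CPM in clone 14. The difference in response between tagged and untagged clones passed the test for 0 of the 43 (0.00662% of all genes), with 2 at an unadjusted p under 0.05 and 0 by DESeq2. Qiagen gave 10 genes, 9 higher and 1 lower, where 5.33% of all genes changed, 2.8% higher and 2.53% lower. Life gave 7, all higher, where 8.29% of all genes changed, 3.97% higher and 4.32% lower. Nature gave 1, lower, where 8.56% changed, 3.76% higher and 4.8% lower. The 3 pooled gave 6, all higher, where 5.4% changed, 2.68% higher and 2.72% lower. The median log2 fold change was 0.07 for Qiagen, 0.24 for Life and 0.01 for Nature, against 0.03, 0.05 and 0.03 over all genes. These comparisons share the 2 SCR libraries. Without the SCR library of clone 12, the deepest one, the calls fell to 3 for Qiagen, 2 for Life and 0 for FLAG, HA, Nature and both pooled contrasts.

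Timp3, an inhibitor bound to the matrix, was the gene with the smallest p under Qiagen siRNA. Its level was 214 CPM with Qiagen, 237 CPM with Life and 94.3 CPM with Nature in clone 12, against 89 CPM with SCR. In clone 14 it was 33.2 CPM with Qiagen, 18.8 CPM with Life and 13 CPM with Nature, against 10.1 CPM with SCR. Qiagen and Life libraries were above SCR in both clones and Nature was close to it (Qiagen 1.49 ± 0.22, Life 1.20 ± 0.22 on the log2 scale, edgeR adjusted p = 0.000321 and 0.0019). Thbs1 had 869 CPM with Qiagen, 689.6 CPM with Life and 685 CPM with Nature in clone 12, against 432 CPM with SCR, and 938, 559 and 521 CPM with the same siRNAs in clone 14, against 323 CPM with SCR. All 3 libraries were above SCR in both clones, and Qiagen and Life passed the test (1.28 ± 0.21 and 0.73 ± 0.21, adjusted p = 0.00111 and 0.0403).

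Thbs2 was lower with Qiagen and higher with Life siRNA. It had 16.2 CPM with Qiagen and 53.8 CPM with Life in clone 12, against 29.1 CPM with SCR, and 15.2 CPM with Qiagen and 66.9 CPM with Life in clone 14, against 37.5 CPM with SCR. The Qiagen libraries were the lowest and the Life libraries the highest of each clone (-1.05 ± 0.22 and 0.86 ± 0.21, adjusted p = 0.00653 and 0.0166). The Life call was lost whichever of the 4 libraries compared was left out (0.79 to 0.94, adjusted p = 0.0711 to 0.117). The Qiagen call was lost without the Qiagen library of clone 14 (-0.77, adjusted p = 0.106) or when SCR of clone 12 was left out (adjusted p = 0.0814). Col5a1 rose with both (0.71 ± 0.18 and 0.87 ± 0.18, adjusted p = 0.0256 and 0.00534), as did Col11a1 (0.89 ± 0.2 and 0.92 ± 0.2, adjusted p = 0.0138 and 0.00867). Both Col11a1 calls were lost without either SCR library, and without the Qiagen library of clone 12 the Qiagen value was 0.54 (adjusted p = 0.316). Col5a2, Ctgf and Tpm1 passed with Qiagen (0.71 ± 0.16, 0.87 ± 0.23 and 0.41 ± 0.12, adjusted p = 0.012, 0.0321 and 0.0465), and Ctgf with HA (1.02 ± 0.22, adjusted p = 0.0131), a call lost without the HA library of either clone or SCR of clone 12 (adjusted p = 0.0703 to 0.222). Adamts12 had 350 counts with Qiagen and 286 with Life in clone 12, against 73 with SCR, and at most 1 count in any of these libraries of clone 14, so its calls rest on clone 12 (3.29 ± 0.58 and 3.25 ± 0.58, adjusted p = 0.0017 each). Without the Qiagen library of clone 12 its Qiagen value was -0.62. That fit rests on the Qiagen library of clone 14 with 0 counts, so it cannot test the call. The Qiagen calls of Timp3 and Thbs1 held whichever library was left out. Each of the other Qiagen and Life calls of these genes was lost without at least 1 library, that of Timp3 with Life without the Life library of clone 12 (0.79, adjusted p = 0.0782). Eln had 10 counts with Qiagen, 13 with Life and 19 with FLAG in clone 12, against 0 with SCR, and 0 with each of these in clone 14, so that no fold change is given.

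Nature siRNA lowered Col6a3. It had 55.3 CPM in clone 12, against 182 CPM with SCR, and 2.64 CPM in clone 14, against 4.22 CPM with SCR (-1.33 ± 0.29, adjusted p = 0.00662). The Nature library was the lowest of the 8 in each clone. In clone 12, dropping the Nature library or the SCR library ended the call, at an adjusted p of 0.316 and 0.206, with a log2 fold change of -0.91 when Nature was dropped. Among the 5 targeting siRNAs a difference of any kind passed the test for 16 of the 43 genes, where 25.1% of all genes did, with the smallest adjusted p for Col5a1 (8.73e-05), Thbs2 (0.000101), Timp3 (0.000261) and Ctgf (0.000762). Ctgf was highest with HA and Qiagen and lowest with Life in both clones, at 274, 238 and 119 CPM in clone 12 and 2.31, 2.34 and 0.493 CPM in clone 14.

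Leptomycin B changed 5 of the 43 genes against untreated cells, 4 higher and 1 lower, where 9.99% of all genes changed, 4.29% higher and 5.7% lower. It lowered Has2 to 12.2 CPM in clone 12, against 56.4 CPM untreated, and to 0.0604 CPM in clone 14, against 0.326 CPM untreated. The leptomycin B library had the lowest Has2 of the 8 in clone 12. In clone 14 it had 4 counts, against 19 untreated, and the Nature library had 2 counts at 0.0669 CPM. A rank among these is not meaningful. Over both clones the change was -2.29 ± 0.31 on the log2 scale (edgeR adjusted p = 0.000198). Col3a1 was 496 CPM with leptomycin B in clone 12, against 238 CPM untreated, and 189 CPM in clone 14, against 93.1 CPM untreated (1.04 ± 0.17, adjusted p = 0.000839). Timp3 was 117 CPM with leptomycin B in clone 12, against 61.9 CPM untreated, and 14.9 CPM in clone 14, against 9.4 CPM untreated (0.79 ± 0.21, adjusted p = 0.0259). Dcn and Sparc were higher too (0.99 ± 0.28 and 0.46 ± 0.14, adjusted p = 0.0345 and 0.0422), Dcn on clone 12 alone, since clone 14 had at most 0.0494 CPM. Leptomycin B and the siRNAs were compared with the same 2 untreated libraries, so their results are not independent. Without the leptomycin B library of clone 12 the call of Has2 was lost (-1.98, adjusted p = 0.182), while that of Col3a1 held whichever library was left out. Those of Timp3, Dcn and Sparc were lost whichever of the 4 libraries compared was left out. For Dcn, the fit without the untreated library of clone 12 cannot test the call, since untreated clone 14 had 0 counts. Among 26 regulators and targets of SRF, MRTF, YAP and TEAD, 5 were lower with leptomycin B and 0 higher (9.99% of all genes changed), among them Mkl1 (-1.05 ± 0.18, adjusted p = 0.00107) and Ankrd1 (-1.17 ± 0.26, adjusted p = 0.00911).

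**Figure D4:**
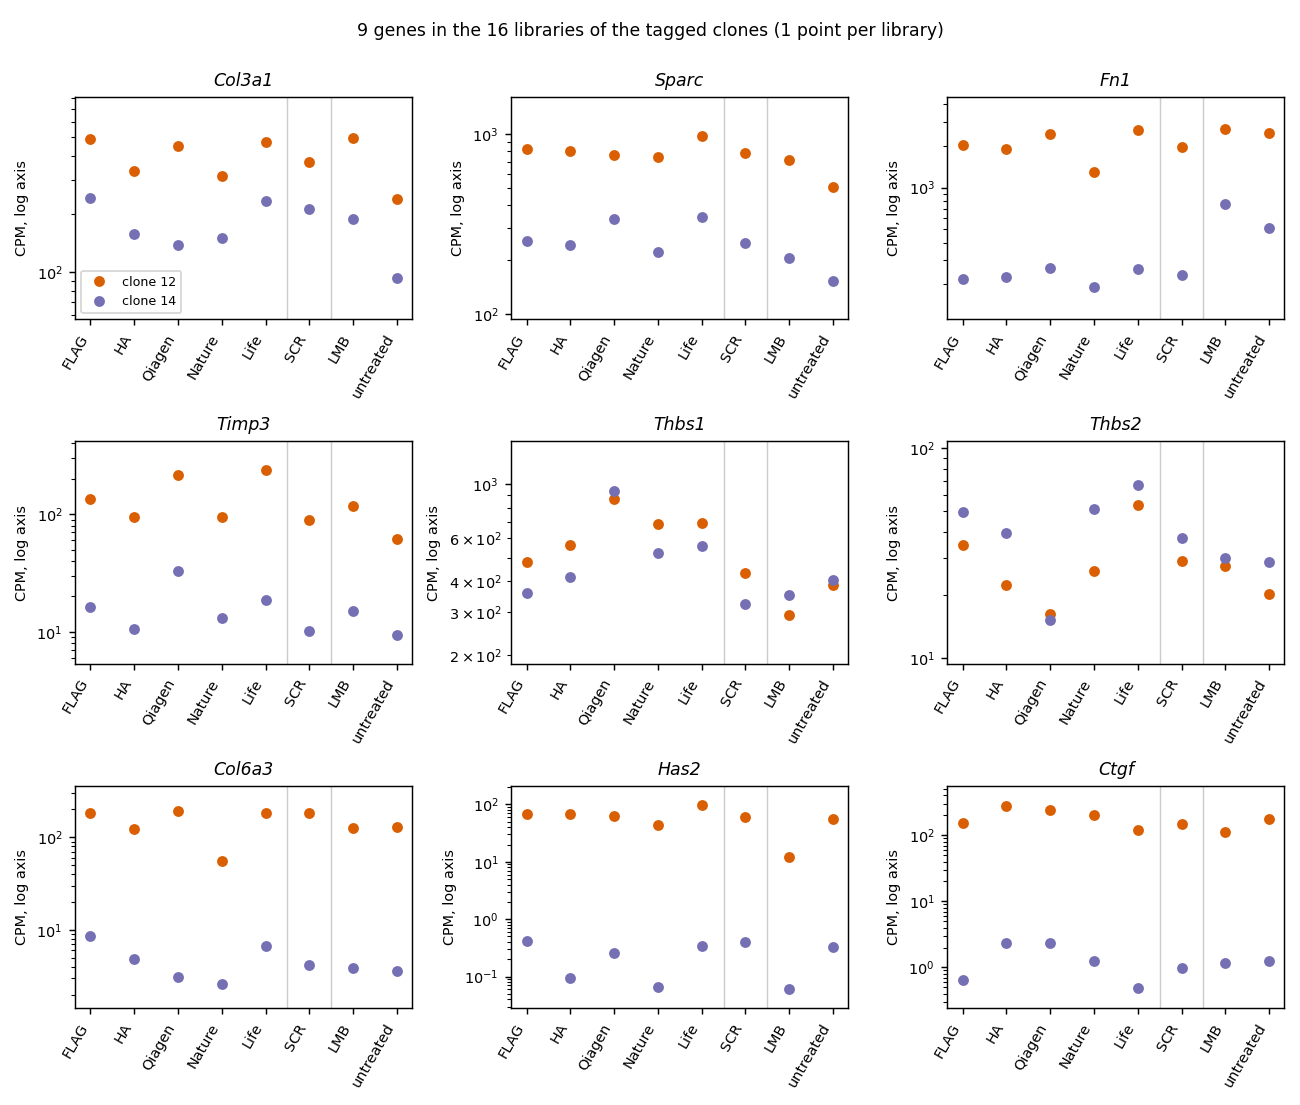
CPM on a log axis (vertical) of 9 genes in each of the 16 libraries of clones 12 and 14, with the 5 targeting siRNAs at the left, then SCR, leptomycin B (LMB) and untreated. Col3a1 and Sparc are lowest in the untreated library of each clone, Fn1 of clone 14 is high in leptomycin B and untreated cells, Thbs2 is lowest with Qiagen, Col6a3 with Nature and Has2 of clone 12 with leptomycin B.

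Few of the 43 genes passed the test in the lines of clone 18. FLAG-mCherry-HA against mCherry gave 0 of the 43 genes in edgeR (0% of all genes), with 5 at an unadjusted p under 0.05 and 0 by DESeq2. All lines of clone 18 against clone 18 gave 1 gene (0.444% of all genes), periostin. It had 8.66 to 20.1 CPM in the 3 FLAG-mCherry-HA libraries and 43.1, 10.3 and 10.3 CPM in the mCherry libraries, against 3.08, 2.11 and 5.01 CPM in clone 18. Each of the 6 libraries was above each library of clone 18 (2.22 ± 0.28 on the log2 scale, adjusted p = 0.00743), and the call was lost without the FLAG or the HA siRNA library of clone 18 (adjusted p = 0.186 and 0.0743).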

How the data were processed

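RNA was taken from cultures of mouse embryonic fibroblasts, and 28 stranded poly(A) libraries were read as single 100-base reads, per the labels' protocols. The submitters' processing notes name TopHat2 2.0.13 and Bowtie2 2.2.3, HTSeq 0.6.1p1, CASAVA 1.8.2, FastQC and the build mm10. A single table of raw counts was deposited by the authors. No source used here gives the strand setting and annotation of the counting, and overlapping genes such as Col4a1 and Col4a2 may share reads. No source used here explains the n in the titles, and each library was treated as 1 sample.

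Counts of all 28 libraries were fitted in R 4.3.3 with edgeR 4.0.16 (filterByExpr, TMM factors, robust quasi-likelihood, 17 coefficients, 11 residual degrees of freedom, biological coefficient of variation 14.6%). The clone, or for the mCherry lines the matched pair, was a block, since the same clones stand in both arms of a treatment comparison. Libraries of the same clone deviated together (lowest correlation 0.834 in tagged and 0.862 in untagged clones). All 378 pairs of libraries differed beyond sampling noise (chi-square over degrees of freedom at least 14.6). P-values were adjusted by Benjamini-Hochberg over 15099 genes, and calls are at 0.05. Clone contrasts average FLAG, HA and SCR siRNA. Standard errors are the size of the estimate over the root of F. CPM come from the deposited counts and TMM factors, and CPM per kb divide by exonic length in GRCm38.p6. The 22 rows without a gene ID went through the same filter. The edgeR fit was tested on simulated data. Intervals and the floor of 3 counts cover counting error only.

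The members and lists were chosen with earlier results of these data known. Any called member may be named. Values by library were planned for the 12 members with the widest clone range and for up to 8 called members per treatment, and other members are given because their pattern differed, chosen after their values were seen. From other lists, called members with the smallest p, up to 4, may be named. A gene that this rule selects is not reported here. Alternatives were relative log expression size factors, no filter, a mean of at least 1 CPM, no replicate block, the SCR, FLAG and HA libraries alone, DESeq2 1.42.0, each library left out in turn, and no library with over 2% Rn45s.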

Additional observations from a re-analysis of the deposited data

How the results depend on the processing

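The 7 clone comparisons kept their counts of called genes within 1.5 times under every alternative run. Leaving out 1 library gave 43 for any difference among clones, 41 to 42 for clone 12 against 14, 31 to 35 for 25 against 18, 29 to 36 for 12 against 18, 26 to 33 for 12 against 25, 38 to 39 for 14 against 18 and 39 to 42 for 14 against 25. The treatment comparisons rest on the clone block: without the replicate block, 0 of the 43 genes were called for SCR or the 6 siRNAs against untreated, for FLAG, HA, Qiagen, Nature and Life siRNA, for any difference among siRNAs, for the pooled tag and pooled cyclin D1 siRNAs and for leptomycin B. Leaving out 1 library gave 0 to 8 for SCR and 4 to 30 for the 6 siRNAs against untreated, 0 to 2 for FLAG, 0 to 2 for HA, 3 to 9 for Qiagen, 0 to 2 for Nature, 1 to 8 for Life, 10 to 16 for any difference, 0 to 2 for the tag and 0 to 7 for the cyclin D1 siRNAs. It gave 0 to 1 for tag siRNAs in untagged clones, 2 to 5 for leptomycin B and 0 to 2 for the mCherry lines against clone 18. With a mean of at least 1 CPM, FLAG gave 1 and the tag siRNAs 0. DESeq2 gave 1 for FLAG, 2 for Nature, 0 for the tag siRNAs, 8 for leptomycin B and 3 for the mCherry lines, which gave 2 without a filter. Without the libraries with over 2% Rn45s, FLAG gave 0, HA 2, Life 4, the tag siRNAs 0 and the cyclin D1 siRNAs 3. The cause was not tested. Of single genes, Col12a1 in clone 12 against 25 turned to -0.90 without the FLAG library of clone 12 (up to 1.08 without another library). Adamts12 with Qiagen turned to -0.62 without the Qiagen library of clone 12 (up to 3.58 without another). In both fits that siRNA rests on a clone 14 library with 0 counts of the gene, so they cannot test the direction. Depth limits Eln, Lum, Postn, Adamts12, Cnn1, Dcn, Col12a1, Mmp2, Loxl1, Myl9 and Has2 in clone 14, where few or 0 reads were counted.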
